A study of Homo sapiens with 6 samples.

Results

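Expression of 49 genes for enzymes that write or erase histone methylation and acetylation was examined in INA-6 cells. INA-6 is a line derived from multiple myeloma (MM), a cancer of plasma cells, and it depends on interleukin-6. The genes encode demethylases, methyltransferases, acetyltransferases and deacetylases outside the Polycomb complexes. They were chosen by function, with earlier results of these data known. Of the 49, 47 had a row of their own on the array, out of 21921 genes with such a row. The other 2, EP300 and ASH1L, lay on rows annotated with a microRNA gene as well, and are given separately and left out of the counts of calls. Cells of 3 cultures received UNC1999, an inhibitor of the methyltransferase EZH2, and cells of 3 other cultures received UNC2400, the inactive control compound. Both were used at 1 μM for 120 hours with a refreshment at 72 hours. All 6 cultures shared the cell line and the medium with interleukin-6, so the values describe a single cell line. UNC2400 is the control by the labels that define the groups here, although DMSO is named in the study's own account. Each group holds 3 biological replicates by its labels.

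Histone tails carry methyl groups on lysines and arginines and acetyl groups on lysines, and each mark is placed and removed by its own enzymes. EZH2, the catalytic subunit of Polycomb repressive complex 2, methylates lysine 27 of histone H3 (H3K27), a repressive mark. The demethylases KDM6A and KDM6B remove it, and the acetyltransferases CREBBP and EP300 can acetylate the same lysine, which excludes methylation there. KDM6A is recurrently inactivated in MM, and deacetylase inhibitors are used against the disease. The comparison of UNC1999 with UNC2400 asks how the genes of the other histone enzymes responded when EZH2 was inhibited.

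All levels are deposited log2 expression values, and each difference is UNC1999 minus UNC2400. Array medians lay between 4.83 and 4.86. On the second principal component, which held 13.3% of the variance, UNC1999 replicate 3 (-19.0) stood apart from UNC1999 replicates 1 and 2 (12.4 and 7.13). Among the 47 genes UNC2400 replicate 2 stood apart. It was the lowest of the 3 UNC2400 arrays for 38 of the 47 genes, or 80.9%, against 47.5% of the genes brighter than the median row. Differences without that array are given below for SMYD2, CREBBP, KDM3B and HDAC1 and for the median of the 47. Without it the difference was 0.32 for SETD1B and 0.35 for SETD2. Some differences near 0 changed sign, such as those of PHF8 and KDM2A (-0.02 each without that array). All 8 plasma cell markers were above the median row in at least 1 group, but 7 of them fell with UNC1999, and their mean log2 level ranged from 7.36 to 7.58 with UNC1999 and from 8.21 to 8.30 with UNC2400. CD38 was higher, a call lost with an array left out (adjusted p up to 0.0861). Of the markers of B, T, NK, myeloid, stromal and endothelial cells only CD3E passed the threshold, from a mean of 5.07 to 5.38. Of 10 mitotic genes 8 were higher with UNC1999, and their mean log2 level ranged from 8.78 to 8.88 with UNC1999 and from 8.31 to 8.41 with UNC2400. The part of the plasma cell markers, the mitotic genes and CD3E in the results below was not tested. In bulk RNA, more transcripts per cell and more cells of a kind cannot be told apart. EZH2 itself was at 7.95, 8.03 and 8.14 with UNC1999 and at 7.87, 7.89 and 7.79 with UNC2400, a difference that did not pass (limma, adjusted p = 0.099).

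Of the 47 enzyme genes, 9 rose with UNC1999, 3 fell and 35 did not pass an adjusted p of 0.05 in limma. The called share was 25.5%. Over all genes 16.5% were called, with 9.16% higher and 7.32% lower, and over all rows of the array 9.39%. The median level of the enzymes was 6.50, against 5.50 for all genes, and 46 of the 47 lay above the median row of the array (4.85) in at least 1 group. Among the 15340 genes as bright as that 22.7% were called, with 12.5% higher and 10.3% lower. A gene can enter that set through the group in which it is higher, as KDM5B did. By the mean over all 6 arrays, which the direction of a change does not set, 11 of 45 enzymes (24.4%) and 22.7% of 15157 genes were called, and the shares lay close together. Differences were small. The median was 0.03 on the log2 scale, beside 0.01 for all genes, and it was -0.01 without UNC2400 replicate 2. The median size of a difference was 0.09, against 0.08 for the bright genes. The arrays of the groups did not overlap for 25 of the 47 genes, or 53.2%, against 37.8% of all genes and 45.1% of the bright ones. By direction, 18 of the 47 were higher and 7 of the 47 lower without overlap, against 24.1% and 13.7% of all genes. This split was not taken for the bright genes. Only SMYD2 changed by 1.5-fold or more, and it alone of the 47 passed the study's cut-offs (that fold with an unadjusted p up to 0.02), as did 2.38% of all genes.

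**Figure D1:**
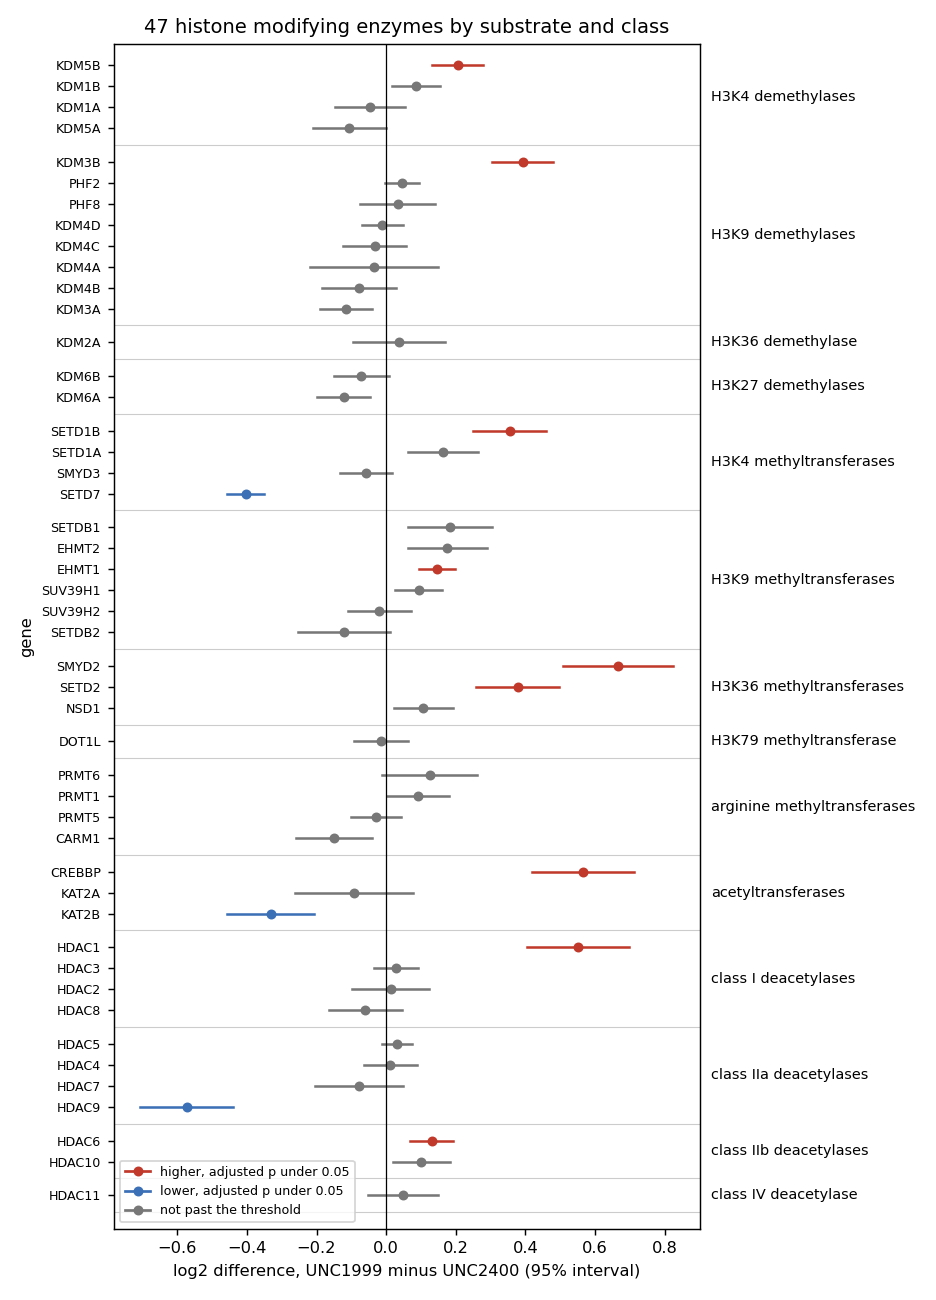
Log2 difference between UNC1999 and UNC2400 (x axis) for each of the 47 enzyme genes (y axis), grouped by substrate or class, with points for the difference of 3 arrays against 3 and lines for the 95% interval from limma. The 9 rises and 3 falls past an adjusted p of 0.05 are spread over several families, from 0.67 for SMYD2 to -0.57 for HDAC9. Most other intervals lie near 0. The intervals are not adjusted for the number of rows tested. In limma 24 of the 47 genes had an unadjusted p below 0.05, so some uncalled genes, such as SETD1A and KDM6A, have intervals that exclude 0.

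The promoters of SMYD2 and HDAC1, which rose, and of SETD7 and KAT2B, which fell, are shown as examples of called genes with a single start in RefSeq. KDM3B, KDM5B, EHMT1 and SETD2, which also rose, had a single start too and are not shown. Each holds 250 bases before and 50 bases after the start (RefSeq, build GRCh38.p14), at chr1:214280909-214281208 and chr1:32291833-32292132 on the plus strand, chr4:139556170-139556469 on the minus strand and chr3:20040196-20040495 on the plus strand. Capitals mark GGGCGG (the GC box bound by SP1 type factors) and CCAAT (bound by NF-Y) on either strand, so that CCGCCC and ATTGG are marked too.
SMYD2: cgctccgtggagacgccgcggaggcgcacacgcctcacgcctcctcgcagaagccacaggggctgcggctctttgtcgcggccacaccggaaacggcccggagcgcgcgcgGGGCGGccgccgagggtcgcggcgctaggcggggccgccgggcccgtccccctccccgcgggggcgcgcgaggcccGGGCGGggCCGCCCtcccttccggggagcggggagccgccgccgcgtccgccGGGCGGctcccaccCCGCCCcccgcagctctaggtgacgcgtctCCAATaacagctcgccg
HDAC1: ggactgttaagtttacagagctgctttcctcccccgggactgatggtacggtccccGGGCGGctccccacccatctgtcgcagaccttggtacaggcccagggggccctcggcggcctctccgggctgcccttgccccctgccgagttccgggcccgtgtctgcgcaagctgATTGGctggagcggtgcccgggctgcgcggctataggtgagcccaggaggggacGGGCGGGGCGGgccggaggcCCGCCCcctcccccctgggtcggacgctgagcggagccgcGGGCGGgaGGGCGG
SETD7: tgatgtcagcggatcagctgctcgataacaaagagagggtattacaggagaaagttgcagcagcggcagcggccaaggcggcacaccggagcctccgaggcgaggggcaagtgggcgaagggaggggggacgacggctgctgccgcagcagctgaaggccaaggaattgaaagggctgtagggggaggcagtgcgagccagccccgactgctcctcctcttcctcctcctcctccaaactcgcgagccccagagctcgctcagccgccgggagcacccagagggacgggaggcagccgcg
KAT2B: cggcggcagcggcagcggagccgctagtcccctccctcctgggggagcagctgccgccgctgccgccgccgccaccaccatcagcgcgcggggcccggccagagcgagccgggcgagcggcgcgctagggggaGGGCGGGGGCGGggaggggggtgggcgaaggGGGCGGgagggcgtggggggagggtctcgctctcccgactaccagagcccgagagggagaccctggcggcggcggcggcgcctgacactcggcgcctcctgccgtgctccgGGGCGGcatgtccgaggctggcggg

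SMYD2 held 5 GC boxes and 1 CCAAT box in this window, HDAC1 6 and 1, KAT2B 4 and 0, and SETD7 neither. Promoters were found for 46 of the 49 enzyme genes, all but SETD1B, DOT1L and HDAC5, and where RefSeq lists several starts the first was used. A GC box stood in 30 of the 46 (65.2%), against 44.6% of all 27305 promoters and 67.4% of those of genes brighter than the median row. Among the called genes it stood in 8 of 8 that rose and in 1 of 3 that fell, and a link to direction was not tested. The median GC content was 72.0% in the 8, 66.0% in the 3 and 65.0% for the bright genes. HDAC9, which fell and lacked the GC box, was taken at the first of 5 listed starts (47.3% GC). CCAAT stood in 14 of the 46 (30.4%, against 35.7% of all and 35.9% of the bright genes). The E-box CACGTG stood in 6 (13%, against 7.43% of all and 9.98% of the bright genes), but in 0 of the 11 called genes. TATAAA stood in 0 of the 46, in 12.0% of all promoters and in 6.31% of those of the bright genes. The letters CCGGAAGT (ETS factors) and TGACGTCA (CRE) each stood in 1 of the 46 and the NRF1 motif in 0, against 4.44%, 1.98% and 1.36% of all and 7.65%, 3.03% and 2.12% of the bright genes. All 7 motifs were searched on both strands, and none of them lies within another. Such matches describe the letters in the window and not the binding of a factor.

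The largest rise was that of SMYD2, a lysine methyltransferase that acts on H3K36 and on proteins other than histones, among them p53 and RB1. Its log2 values were 6.80, 6.74 and 6.95 with UNC1999 and 6.25, 6.12 and 6.13 with UNC2400. Every UNC1999 array lay above every UNC2400 array, with a gap much wider than the spread within a group. The fold was 1.59 (difference 0.67, SE 0.06, n = 3 per group, adjusted p = 0.00379 in limma), and the difference was 0.64 without UNC2400 replicate 2. SETD2, the enzyme that trimethylates H3K36 along transcribed genes, was at 6.83, 6.92 and 7.0 with UNC1999 and at 6.57, 6.48 and 6.57 with UNC2400. The groups did not overlap, and the fold was 1.3 (difference 0.38, SE 0.05, n = 3 per group, adjusted p = 0.00887 in limma). NSD1, which dimethylates H3K36, lay at 6.69 ± 0.02 against 6.59 ± 0.06 (SD, n = 3 each) without passing (limma, adjusted p = 0.135). The row shared by ASH1L, another H3K36 enzyme, and MIR555 was at 7.44 ± 0.07 with UNC1999 and at 7.37 ± 0.08 with UNC2400 (SD, n = 3 each, adjusted p = 0.524 in limma).

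H3K4 methyltransferases went both ways. SETD7, which places a single methyl group on H3K4 and also methylates transcription factors, had the smallest p of all 47 genes. It was at 6.99, 7.03 and 7.05 with UNC1999 and at 7.44, 7.42 and 7.42 with UNC2400. The arrays of each group lay close together, and the gene was 1.32-fold lower with UNC1999 (difference -0.40, SE 0.02, n = 3 per group, adjusted p = 0.00104 in limma). SETD1B, a catalytic subunit of the COMPASS complexes that trimethylate H3K4 at promoters, moved the opposite way. Its values were 6.97, 6.92 and 6.92 with UNC1999 and 6.57, 6.50 and 6.66 with UNC2400, 1.28-fold higher without overlap (difference 0.36, SE 0.04, n = 3 per group, adjusted p = 0.00712 in limma). Its paralogue SETD1A was the uncalled enzyme nearest to the threshold, with a difference of 0.16 (95% interval 0.06 to 0.26, adjusted p = 0.0665 in limma). It passed once dim rows were left out (adjusted p = 0.0498), with quantile normalization (adjusted p = 0.0256) and with cyclic loess (adjusted p = 0.0478). SMYD3 was at 5.94 in the UNC1999 group and at 6.00 in the UNC2400 group, with overlapping arrays.

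Among the 6 H3K9 methyltransferases, whose mark is found in silent chromatin, EHMT1 rose and the others did not pass. EHMT1, which forms a dimer with EHMT2 and dimethylates H3K9, was at 6.55, 6.51 and 6.49 with UNC1999 and at 6.38, 6.35 and 6.38 with UNC2400. The difference of 0.15 was small beside those above but free of overlap (1.11-fold, SE 0.02, n = 3 per group, adjusted p = 0.0131 in limma). It did not pass without UNC1999 replicate 2 (adjusted p = 0.0554). EHMT2 had 7 rows, and all 7 gave nearly the same difference (0.16 to 0.17). Those ranked 2 and 3 by mean were identical on all 6 arrays, and the rows ranked below them were nearly so. Their agreement is therefore not repeated support. The brightest row, which represents the gene, had an adjusted p of 0.0793 in limma, and 4 of the other rows lay just under 0.05, so that its call depends on the row. SETDB1, which silences retroelements, was higher by 0.18 (adjusted p = 0.0832 in limma) and SUV39H1, a heterochromatin enzyme, by 0.09 (adjusted p = 0.108), neither passing. SUV39H1 passed without UNC1999 replicate 3 (adjusted p = 0.0338). SUV39H2 and SETDB2 lay at -0.02 and -0.12, with overlapping arrays.

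DOT1L, the H3K79 methyltransferase, was at 7.26 ± 0.02 with UNC1999 and at 7.27 ± 0.05 with UNC2400 (SD, n = 3 each), and the 95% interval of the difference ran from -0.09 to 0.06. None of the 4 arginine methyltransferases passed. PRMT1, the main enzyme of asymmetric arginine methylation, PRMT5, that of symmetric methylation, and PRMT6 had differences of 0.09, -0.03 and 0.13, with overlapping arrays. CARM1, a coactivator that methylates histone H3 and CREBBP, lay nearest to the threshold. It was at 8.19, 8.11 and 8.14 with UNC1999 and at 8.38, 8.23 and 8.27 with UNC2400, without overlap but with an adjusted p of 0.108 in limma (difference -0.15, 95% interval -0.26 to -0.04), and it passed with cyclic loess (adjusted p = 0.0325).

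**Figure D2:**
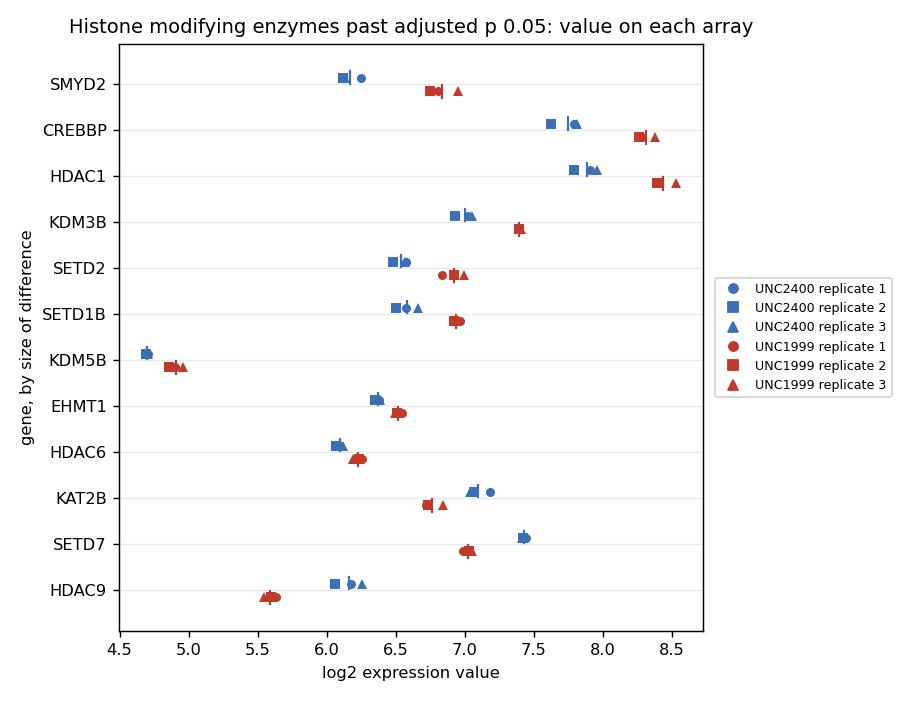
Log2 expression value (x axis) of the 12 enzyme genes with an adjusted p below 0.05 (y axis), with a marker for each array, blue for UNC2400 and red for UNC1999, and a vertical tick for the mean of the 3 arrays. In none of the 12 genes do the groups overlap. The 12 were picked by their p on these same arrays, so this is no separate support. For SMYD2, CREBBP, HDAC1 and HDAC9 the gap between the groups is widest.

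The acetyltransferases also split. CREBBP, the coactivator known as CBP, was at 8.28, 8.26 and 8.38 with UNC1999 and at 7.79, 7.62 and 7.81 with UNC2400. All UNC1999 arrays lay above the UNC2400 arrays, and the fold was 1.48 (difference 0.56, SE 0.06, n = 3 per group, adjusted p = 0.00489 in limma). The difference was 0.51 without UNC2400 replicate 2. The row shared by EP300, its close paralogue, and MIR1281 was at 8.34, 8.36 and 8.47 with UNC1999 and at 8.07, 7.97 and 8.05 with UNC2400. That row was 1.28-fold higher (difference 0.36, adjusted p = 0.00941 in limma), and it cannot be assigned to EP300 alone. KAT2B, known as PCAF and a catalytic subunit of the SAGA type complexes that acetylate H3K9, fell. Its values were 6.72, 6.73 and 6.84 with UNC1999 and 7.18, 7.07 and 7.04 with UNC2400, 1.26-fold lower without overlap (difference -0.33, SE 0.05, n = 3 per group, adjusted p = 0.0151 in limma). The adjusted p was 0.0592 without UNC1999 replicate 1 and 0.0692 without UNC1999 replicate 2. KAT2A, the alternative catalytic subunit of these complexes, was at 7.04 ± 0.02 against 7.13 ± 0.14 (SD, n = 3 each), with overlapping arrays.

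The 2 demethylases of H3K27, which undo the mark that EZH2 places, did not pass in either direction. KDM6A was at 5.85, 5.85 and 5.90 with UNC1999 and at 6.04, 5.97 and 5.95 with UNC2400. The UNC1999 arrays were all the lower ones, by a difference of -0.12 (95% interval -0.20 to -0.05, adjusted p = 0.0709 in limma). KDM6B was at 6.21, 6.21 and 6.17 with UNC1999 and at 6.27, 6.21 and 6.33 with UNC2400, so that the lowest UNC2400 array and the highest UNC1999 arrays lay at nearly the same level. The 95% interval of its difference ran from -0.15 to 0.01 (adjusted p = 0.271 in limma).

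Over all 15 demethylases 2 rose and 0 fell in limma, or 13.3% called, which is below the 22.7% of the bright genes. Both were enzymes of other lysines. KDM3B, which removes methyl groups from H3K9, was at 7.38, 7.39 and 7.40 with UNC1999 and at 7.03, 6.93 and 7.05 with UNC2400. It was 1.31-fold higher without overlap (difference 0.39, SE 0.04, n = 3 per group, adjusted p = 0.00316 in limma), and the difference was 0.35 without UNC2400 replicate 2. KDM3A, its paralogue and a target of the hypoxia response, lay the other way at -0.12 (adjusted p = 0.0789 in limma). KDM5B, an H3K4 demethylase, was at 4.90, 4.86 and 4.96 with UNC1999 and at 4.71, 4.69 and 4.71 with UNC2400. The gap was small and the signal lay near the median row, at which arrays understate a fold (1.15-fold, difference 0.21, SE 0.03, n = 3 per group, adjusted p = 0.0123 in limma). The other H3K4 demethylases KDM1A, a subunit of the CoREST complex, KDM1B and KDM5A had differences of -0.05, 0.09 and -0.11. The H3K36 demethylase KDM2A was at 0.04, and KDM4A, KDM4B, KDM4C, KDM4D, PHF2 and PHF8 ranged from -0.08 to 0.05. KDM4D was the only enzyme gene below the median row in both groups, so that little can be said of it.

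Among the deacetylases the class I enzyme HDAC1 and the class IIa enzyme HDAC9 changed most, in opposite directions. HDAC1, the catalytic subunit of the SIN3, NuRD and CoREST corepressor complexes, was at 8.38, 8.39 and 8.53 with UNC1999 and at 7.90, 7.79 and 7.96 with UNC2400. Every UNC1999 array was higher than any UNC2400 array, and the fold was 1.46 (difference 0.55, SE 0.06, n = 3 per group, adjusted p = 0.00517 in limma, difference 0.50 without UNC2400 replicate 2). HDAC2, which shares these complexes with it, was at 5.93, 6.00 and 6.10 with UNC1999 and at 6.00, 6.03 and 5.97 with UNC2400. Its arrays overlapped, and the 95% interval of the difference ran from -0.10 to 0.12 (adjusted p = 0.921 in limma). HDAC3, the enzyme of the NCOR complexes, was at 6.27, 6.22 and 6.25 with UNC1999 and at 6.24, 6.17 and 6.24 with UNC2400, again with overlap (interval -0.03 to 0.09, adjusted p = 0.622 in limma). HDAC8 had a difference of -0.06.

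HDAC9, a class IIa enzyme that binds MEF2 transcription factors, had the largest fall of the 47 genes. It was at 5.63, 5.59 and 5.55 with UNC1999 and at 6.17, 6.06 and 6.26 with UNC2400. The groups were well apart, with a 1.49-fold lower level after UNC1999 (difference -0.57, SE 0.05, n = 3 per group, adjusted p = 0.0036 in limma). HDAC4, HDAC5 and HDAC7, the other class IIa enzymes, had differences of 0.01, 0.03 and -0.08. HDAC6, the cytoplasmic deacetylase of tubulin, was at 6.25, 6.23 and 6.19 with UNC1999 and at 6.10, 6.06 and 6.12 with UNC2400. This was the weakest of the calls (1.09-fold, difference 0.13, adjusted p = 0.0322 in limma), and it was lost when any array but UNC1999 replicate 3 was left out (adjusted p up to 0.118). HDAC10, its class IIb relative, was higher by 0.10 without passing (adjusted p = 0.141 in limma), and HDAC11 lay at 0.05.

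Related enzymes were then set against each other by the log2 ratio of the pair on each array, in which an equal shift of both genes on an array cancels. With 3 arrays against 3, a two-sided exact permutation test cannot give a p below 0.1, so no pair could pass. Of 16 pairs, 8 had ratios that did not overlap between the groups (exact permutation p = 0.1, adjusted p = 0.2 over the 16 pairs). This share is close to the 45.1% of single bright genes without overlap, but a ratio is a different measure from the level of a single gene. Pairs of other genes were not examined, so whether the count is particular to these enzymes was not tested. Of the pairs without overlap, those with KDM3B, KDM5B, SETD1B, SMYD2, HDAC1 or HDAC9 hold a gene already called on these same arrays. Their ratios largely repeat the change of that gene and are no separate support. SMYD2 rose relative to SMYD3 by 0.72 and HDAC1 relative to HDAC2 by 0.54. In the demethylases, the ratio of KDM3A to KDM3B changed by -0.51 and that of KDM5A to KDM5B by -0.31. The ratio of HDAC7 to HDAC9 changed by 0.50, that of SETDB1 to SETDB2 by 0.30, that of SETD1A to SETD1B by -0.19 and that of KDM1A to KDM1B by -0.13. The ratio of HDAC7 to HDAC9 had the tightest arrays of the larger shifts, with an SD of 0.01 for UNC1999 and 0.02 for UNC2400 (n = 3 each). The ratio of EHMT1 to EHMT2, which work as a dimer, changed by -0.03, with overlapping arrays.

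**Figure D3:**
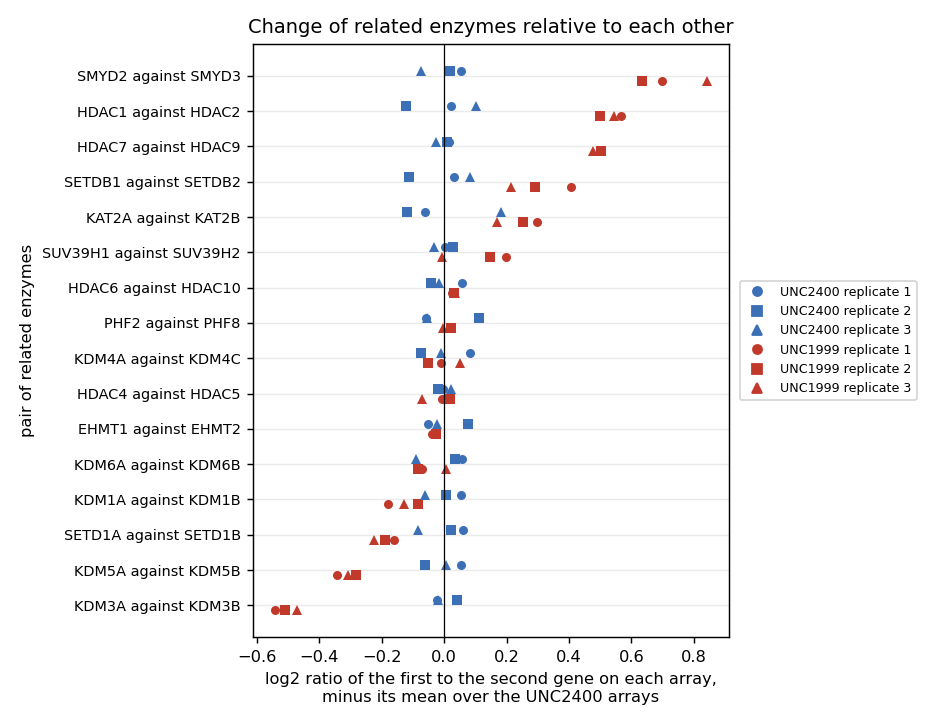
Log2 ratio of the first to the second enzyme of each pair on each array, minus its mean over the UNC2400 arrays (x axis), for 16 pairs of related enzymes (y axis), with blue markers for UNC2400 and red markers for UNC1999. In 8 pairs, the 4 at the top and the 4 at the bottom, the red and blue markers do not overlap, beside 45.1% of single bright genes.

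Genes that work with these enzymes were counted from lists of further enzymes and complex partners. Of 109 measured, 31 were higher and 4 lower with UNC1999 and 74 did not pass (limma), a share of 32.1% called against 22.7% of the bright genes, of which 12.5% were higher and 10.3% lower. Of the 35 calls 16 were lost with at least 1 array left out, and the share was not tested against that of other genes. These lists and those below were drawn up with earlier results of these data known, so their shares are descriptions only. The lists were not matched in level to the bright genes either. The median difference was 0.07. Corepressor partners of the deacetylases had 11 of 25 higher and 2 lower, with a median of 0.14. MTA2, a subunit of NuRD, rose 1.42-fold (8.71 ± 0.04 after UNC1999 against 8.20 ± 0.04 after UNC2400, SD, n = 3 each, adjusted p = 0.00135 in limma), and SIN3A, the scaffold of the SIN3 complex, 1.41-fold (adjusted p = 0.00258). SAP18, a partner in the SIN3 complex, was 1.17-fold higher (adjusted p = 0.00261). All 3 held whichever array was left out. For 5 of the 13 called partners the call was lost with an array left out.

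Of 13 partners of the H3K4 methyltransferases 6 rose and 0 fell, the median being 0.22, or 46.2% called against 22.7% of the bright genes, and 4 of the 6 calls were lost with an array left out. CXXC1, which brings the SETD1A and SETD1B complexes to CpG-rich promoters, rose 1.47-fold (7.67 ± 0.06 after UNC1999 against 7.12 ± 0.08 after UNC2400, SD, n = 3 each, adjusted p = 0.0037 in limma). NCOA6, of the KMT2C and KMT2D complexes, was 1.25-fold higher (adjusted p = 0.00701 in limma) and the core subunit ASH2L 1.16-fold (adjusted p = 0.0202, and up to 0.0795 with an array left out). Among the SAGA partners of KAT2A and KAT2B, 2 of 14 were higher and 0 lower, or 14.3%, which is below the share of the bright genes. They were SGF29, a reader of methylated H3K4, with a fold of 1.63, and ATXN7L3, of the deubiquitinating module, with a fold of 1.26 (adjusted p = 0.0048 and 0.00253 in limma).

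**Figure D4:**
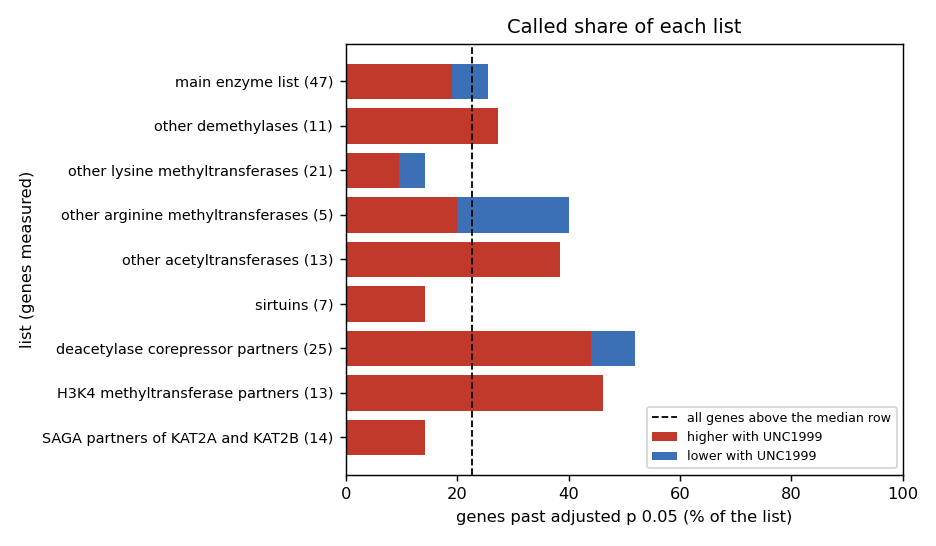
Share of each list (y axis, with the number of genes measured) that passed an adjusted p of 0.05 in limma (x axis, percent), in red for genes higher and in blue for genes lower with UNC1999, with a dashed line at the 22.7% of all genes brighter than the median row. The main list of 47 enzymes lies close to the line. To its right lie the corepressor (52.0%), H3K4 partner (46.2%), other arginine methyltransferase (40.0%), other acetyltransferase (38.5%) and other demethylase (27.3%) lists. The other lysine methyltransferases, the sirtuins and the SAGA partners (14.3% each) lie to its left.

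The shares of the further enzymes are to be read against the same 22.7% of bright genes, of which 12.5% were higher. Of 13 acetyltransferases outside the main list 5 rose and 0 fell, or 38.5% called. NCOA1, a nuclear receptor coactivator, KAT5, known as TIP60, and KAT6B, an H3K23 acetyltransferase, were at 1.26-fold, 1.25-fold and 1.32-fold (adjusted p = 0.00492, 0.00629 and 0.00805 in limma). These 3 held whichever array was left out, and the other 2 calls, of KAT7 and NAA60, did not (adjusted p up to 0.0993 and 0.133). The list of further demethylases and related genes, JARID2 among them, had 3 of 11 (27.3%) higher and 0 lower. The higher ones were KDM2B (1.25-fold, adjusted p = 0.00111 in limma), which is also a subunit of a PRC1 complex, KDM7A (1.35-fold) and RIOX1 (1.19-fold). The calls of KDM7A and RIOX1 were lost on leaving out an array (limma, adjusted p up to 0.0556 and 0.0572). Of 21 further lysine methyltransferases 14.3% were called. MECOM and SETMAR were higher and SETD5 lower, by 1.28-fold, 1.15-fold and 1.25-fold (adjusted p = 0.000927, 0.0109 and 0.00861 in limma). The call of SETMAR was lost without UNC1999 replicate 2 (adjusted p = 0.0546). MECOM started from 4.68, near the array median. Of 5 further arginine methyltransferases 40.0% were called. PRMT2 was 1.33-fold higher and PRMT3, which acts on a ribosomal protein, 1.36-fold lower (adjusted p = 0.00179 and 0.0123 in limma, the second up to 0.0591 with an array left out). Of 7 sirtuins, the NAD-dependent deacetylases, only SIRT7 passed (14.3%), and it was higher (1.09-fold, adjusted p = 0.0396 in limma), a call lost with an array left out (adjusted p up to 0.137).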

How the data were processed

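Total RNA of 6 INA-6 cultures was labelled and hybridised to Affymetrix human transcript arrays, 1 per culture. The log2 values, 1 per transcript cluster and array, are as deposited by the authors, who used GeneSpring; how they were summarised and normalized, and on which build, is not given in the sources used here. There were 65529 rows and 0 columns of other samples. Rows were named through the platform annotation, in which 23129 rows had 1 symbol, 1221 had several and 41179 had none. Of the single symbols 20515 were current in RefSeq (GRCh38), 2540 were updated through a synonym and 74 were kept as given. A gene on several rows took the row with the highest mean.

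The groups were compared by two-sided tests in limma 3.58.1 (R 4.3.3, lmFit and eBayes), fitted to all 65529 rows with a group term alone. Values of p were adjusted over all rows by Benjamini-Hochberg, with a threshold of 0.05. A bright gene had a mean above 4.85, the median of all rows, in at least 1 group, and a split by the mean over all 6 arrays was added after seeing the data. The fit was run on simulated arrays with independent normal noise, which checks the code and not the calls. The members, the lists and the naming rule were chosen with earlier results of these data known, and the rule named all called enzymes, the H3K27 demethylases, CREBBP, EP300, HDAC1, HDAC2 and HDAC3, and up to 3 called genes per further list. Near the background log2 values compress folds. Precision is limited by the 3 arrays per group. Alternatives were another normalization or row filter, other variance settings and leaving out each array. Whether equally numbered arrays come from a shared culture is not stated, and the fit has no term for pairs.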

Additional observations from a re-analysis of the deposited data

How the results depend on the processing

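Of the 12 called enzymes, 9 passed in each of the 13 alternative fits and kept their direction, and 3 were lost in at least 1 of them (EHMT1, KAT2B and HDAC6). By the study's own cut-offs (unadjusted p up to 0.02, fold from 1.5 up) 1 enzyme was higher and 0 were lower, beside 2.38% of all genes called. With 1 array left out, 7 to 10 enzymes were higher and 2 to 3 lower, while 8.17% to 17.3% of all genes were called. The main fit called 16.5% of all genes. The median difference of the enzymes ranged from -0.00628 without UNC2400 replicate 2 to 0.0385 without UNC1999 replicate 2. With cyclic loess the median was -0.000958. Enzymes gained a call with quantile normalization (SETD1A, EHMT2 and NSD1), cyclic loess (SETD1A and CARM1), dim rows left out (SETD1A, with 46 of the enzymes in the fit) and without UNC1999 replicate 3 (SUV39H1). Of all genes in the fit 18.0%, 17.1%, 25.4% and 17.3% were called there, in that order. With the replicate number as a block 7 enzymes were higher and 2 lower, beside 11.3% of all genes called. The calls of EHMT1, KAT2B and HDAC6 were lost, but whether the numbers pair the arrays is not given by the labels. The deviations of equally numbered arrays correlated at only 0.06, 0.08 and -0.01, although 4 of 6 arrays correlated best with their own number, so the fit without the block was kept. With a variance trend and robust settings EHMT1 and HDAC6 were lost, and 15.2% of all genes were called. No called enzyme changed direction.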
